A study of Mus musculus with 12 samples.

Results

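Malat1, Neat1, Meg3, Rian, Mirg, Miat and Snhg11 are long non-coding RNAs that stay largely in the nucleus of neurons. They were chosen by gene symbol, 7 of the 22609 genes listed for each library, and each had counts in all 12 libraries. The libraries came from dorsal root ganglia (DRG, L3-L5) and trigeminal ganglia (TG), the clusters of sensory neurons that serve body and head, of naive mice. The labels give the strain as C57BL and the age as 3-4 months, whereas the methods of the study name C57BL/6J and a younger range in weeks. Ganglia were dissociated and passed over a Percoll density gradient that enriches sensory neurons, and total RNA depleted of ribosomal RNA was sequenced as short single reads. Each of the 4 groups (female or male, DRG or TG) had 3 libraries. The sample titles mark every library as wild type (Wt) and the labels name no treatment. The females were in estrous phase by the methods of the study. The design text names 3 animals of each sex, but no label ties a library to an animal, so that p-values measure the spread between these libraries, part of which may be technical.

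Reads in genes ranged from 7511765 to 15396090 per library, and 3 counts in a library corresponded to 0.195 to 0.399 CPM (counts-per-million, the counts of a gene scaled to a common library total with TMM factors). Every library matched its labelled sex, with 9351 to 15691 Xist counts in females against 4 to 11 in males, and 694 to 1843 Ddx3y counts in males against at most 2 in females. All 14 markers of sensory neurons were detected and summed to between 7472 and 13728 CPM, against 2422 to 6426 CPM for 7 markers of satellite glia, the cells that wrap neuron bodies in the ganglion. Of the blood cell list, 4 hemoglobin genes, which come in near-identical pairs, were listed at 0 in every library. In such bulk fractions, fewer cells of a type and less RNA per cell cannot be told apart. No pair of libraries within a group agreed within sampling noise, so each was counted as a separate sample.

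Long non-coding RNAs are transcribed and often spliced like messenger RNAs but are not translated, and many act where they are made. Malat1 collects in nuclear speckles, bodies rich in splicing factors, and Neat1 is the scaffold on which the proteins of another body, the paraspeckle, assemble. Meg3, Rian and Mirg lie in tandem in the imprinted Dlk1-Dio3 region and are expressed from the maternal chromosome: Meg3 has been studied as a growth-restraining RNA, Rian hosts small nucleolar RNAs, and Mirg hosts microRNAs. Miat, also called Gomafu, forms its own nuclear spots in neurons and binds splicing factors, and Snhg11 hosts small nucleolar RNAs in its introns.

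In the mm9 build, which the count files use, Malat1 covers chr19:5795690-5802671 and Neat1 chr19:5824708-5845478, both on the minus strand and 22036 bases apart. Each is annotated there as a single exon block, of 6982 and 20771 bases. Malat1 and the long form of Neat1 end in a triple helix in place of a poly(A) tail, in which an A-rich stretch folds back on U-rich stretches; since the libraries were made from ribosome-depleted RNA with random primers, RNAs of this kind could be read. These ends are shown because they set the pair apart from the spliced members. Capitals mark the motifs TTTCTTTT and TTTTGCTTT (U-rich) and AAAGCAAAA (A-rich), written as DNA and searched on the sense strand only. The stretch of Malat1 is chr19:5795982-5796071 and that of Neat1 chr19:5824708-5824797, minus strand in both.
Malat1: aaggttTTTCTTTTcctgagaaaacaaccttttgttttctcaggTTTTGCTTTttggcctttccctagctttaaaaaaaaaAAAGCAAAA
Neat1: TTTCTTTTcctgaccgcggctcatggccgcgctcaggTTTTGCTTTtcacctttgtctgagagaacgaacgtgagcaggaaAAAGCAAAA
The Neat1 stretch closes at the annotated end of the gene, and that of Malat1 292 bases before it. Of 21702 genes with exons in the GENCODE annotation of this build, 2 held the 3 motifs in this order with at most 60 bases between them (0.00922%), and these were Malat1 and Neat1.

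Miat covers chr5:112642248-112657968 on the minus strand, with 8760 exonic bases in 7 blocks. Its RNA is known for repeats of UACUAAC, the letters that the splicing factor Sf1 reads at branch points, and the stretch below holds 3 of its 6 exonic copies (chr5:112645773-112645832, minus strand, TACTAAC in capitals, sense strand searched).
Miat: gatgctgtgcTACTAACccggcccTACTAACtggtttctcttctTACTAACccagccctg
At least 1 copy was found in the exons of 7.32% of annotated genes. At least 6 copies were found in 2 of the 21702 genes, and Miat was the only such gene among the 1639 with at least 8000 exonic bases. Among the other members Neat1 held 1 copy and the other 5 held 0.

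Meg3 covers chr12:110779211-110809936, Rian chr12:110842155-110899919 and Mirg chr12:110973191-110987665, all on the plus strand, with gaps of 32218 and 73271 bases between them. Their exons make up 58.9%, 14.2% and 21.9% of these spans, and come to 18089, 8197 and 3175 bases. Promoter windows of 250 bases before to 50 bases after the start were taken from RefSeq (GRCm38.p6, a later build than that of the counts), where 6 of the 7 members have a window and Meg3 has 2. The upstream window of Meg3 (chr12:109540746-109541045, plus strand) is shown because it precedes the tandem array. Capitals mark CCAAT, TGACGTCA (the cAMP response element, to which CREB proteins bind) and TATAAA.
Meg3 promoter: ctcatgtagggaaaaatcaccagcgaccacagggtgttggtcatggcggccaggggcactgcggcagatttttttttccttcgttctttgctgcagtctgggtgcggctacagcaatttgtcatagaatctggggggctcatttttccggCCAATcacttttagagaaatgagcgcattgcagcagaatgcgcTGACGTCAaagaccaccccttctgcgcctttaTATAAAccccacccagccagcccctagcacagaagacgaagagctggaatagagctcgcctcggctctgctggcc
On both strands, TGACGTCA was found in 1.79% of 32851 windows, TATAAA in 13.6% and CCAAT in 37.4%. The reverse complement of TATAAA overlaps the match shown here. None of the other 6 windows of members held TGACGTCA or TATAAA, and Mirg held 1 CCAAT. Snhg11 covers chr2:158201374-158211881 on the plus strand, with 8521 exonic bases, and is listed as protein_coding in the GENCODE annotation used.

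Malat1 was the gene with the most counts in every library. It held 1.81% to 4.21% of the reads in genes (median 2.66%), with a 95% Wilson interval that reached no more than 0.0120 points from the value, which covers counting error only. The next genes by mean share were Rpph1, the RNA of ribonuclease P, with 0.724%, and Mtap1b, a microtubule protein of neurons, with 0.690%, against 2.89% for Malat1. The other 6 members together held 0.160% to 0.286%, so that Malat1 made up 89.3% to 95.8% of the counts of the 7. Meg3 held 0.0305% to 0.0881%, Rian 0.0389% to 0.0691%, Snhg11 0.0317% to 0.0550%, Neat1 0.0201% to 0.0682%, Miat 0.0104% to 0.0399% and Mirg 0.00108% to 0.00315%. With reads outside genes added to the denominator, Malat1 held 1.12% to 2.34%.

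Per kilobase of exon (RPKM, TMM-scaled CPM per kilobase of all annotated exons of a gene), the order of mean levels over the 12 libraries was Malat1, Rian, Snhg11, Meg3, Miat, Neat1 and Mirg. Malat1 stood at 4138 RPKM ± 1274 (SD, n = 12), above every value of the others. Rian followed at 63.3 RPKM ± 16.5 and Snhg11 at 52.7 RPKM ± 7.58, and their ranges over libraries overlapped. Meg3 had 30.6 RPKM ± 8.97, Miat 21.4 RPKM ± 9.33, Neat1 17.8 RPKM ± 6.73 and Mirg 7.79 RPKM ± 2.14, and each range overlapped that of the next gene in the order. With the longest annotated transcript as the length, chosen after seeing the data, Rian stood at 98.9, Snhg11 at 76.6 and Mirg at 12.98 RPKM, and the order was the same. Neat1 has a short and a long isoform that share their start, and counts per gene do not separate them.

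**Figure D1:**
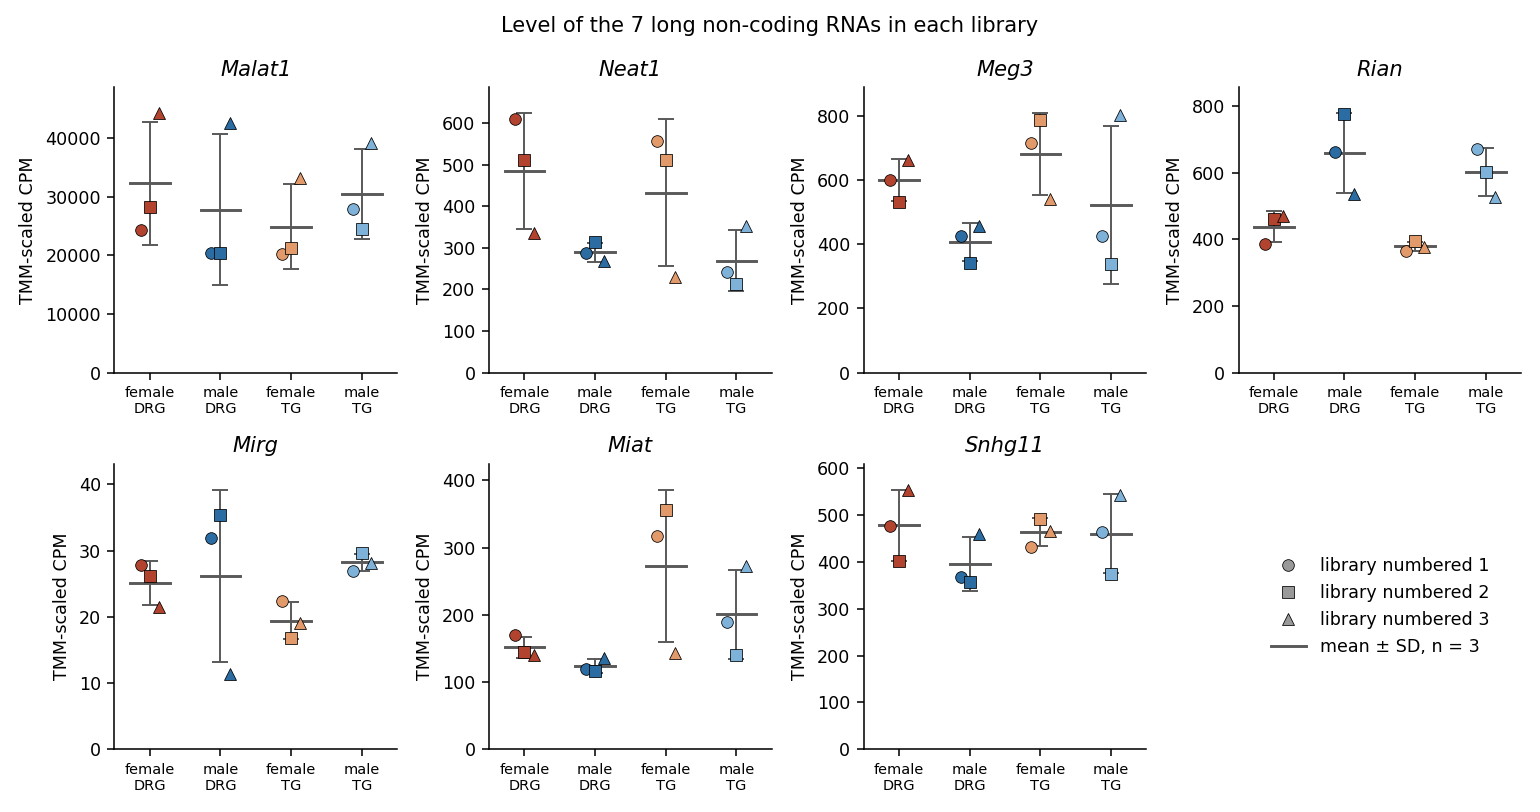
Level of each RNA (TMM-scaled CPM, linear axis from 0) in the 12 libraries by group, with the library number as the marker shape and the mean ± SD of 3 libraries as bars. The 4 libraries numbered 3 are the highest of their group in Malat1, and the male groups lie above the female groups in Rian.

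The libraries numbered 3 stood apart from the rest in Malat1. Malat1 was at 44258 CPM in female DRG 3, 33286 in female TG 3, 42659 in male DRG 3 and 39214 in male TG 3. The other libraries had 24363 and 28293 CPM in female DRG, 20251 and 21248 in female TG, 20416 and 20381 in male DRG, and 27870 and 24498 in male TG. The 4 libraries numbered 3 thus did not overlap the other 8, at 33286 to 44258 against 20251 to 28293 CPM, a pattern noticed in these values and not tested. Of 14829 genes tested over the 12 libraries, 3.70% did not overlap, 2.27% being higher and 1.43% lower in the libraries numbered 3. The other 6 members overlapped, and Snhg11 came closest to the pattern with 460.2 to 554 CPM in libraries numbered 3 against 356 to 491 CPM in the others.

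Other properties moved with the library number. Alignments that were not unique, which the counting leaves out, made up 38.4% to 41.2% of all counted lines in the libraries numbered 3 and 42.9% to 49.5% in the others, again without overlap. Summed satellite glia markers were at 2422 to 3823 CPM in the libraries numbered 3 and at 4331 to 6426 CPM in the others. Of this sum, Apoe alone averaged 2739 CPM over all libraries. The sums of all other marker lists overlapped, with sensory neuron markers at 7832 to 13061.5 CPM against 7472 to 13728 CPM. The percent of reads outside genes overlapped, at 42.6% to 47.9% against 37.6% to 50.4%. The labels do not say what the number marks, and its part in the level of Malat1 was not tested.

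**Figure D2:**
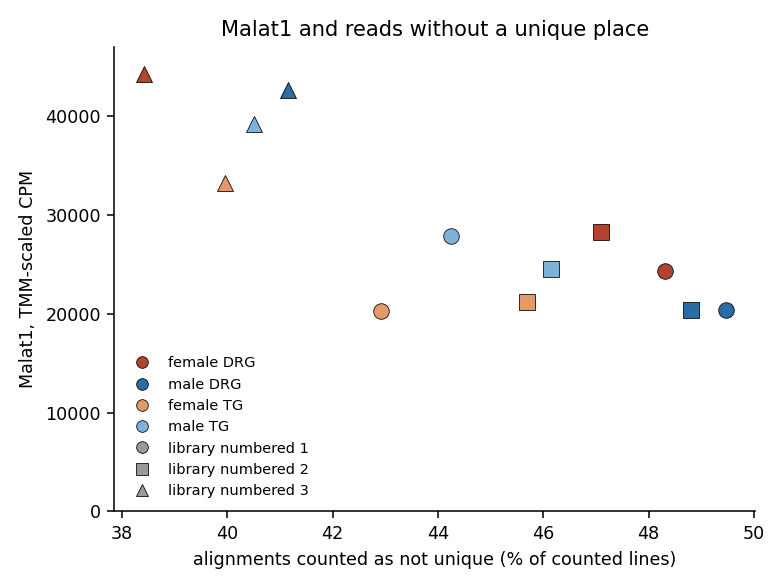
Malat1 (TMM-scaled CPM, axis from 0) against the percent of counted lines that were alignments without a unique place, 1 point for each of 12 libraries, with group as color and library number as shape. The libraries numbered 3 form the cluster at 38.4% to 41.2% and 33286 to 44258 CPM.

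The comparison of the sexes asked which of these RNAs differ between female and male fractions of the same ganglion. Rian had higher levels in males in both ganglia, Neat1 and Meg3 had higher means in females, and no member passed an adjusted p of 0.05. In TG 0 of 7 members were called by edgeR at that threshold, where 0.0357% of 14009 genes were called, 5 genes that were all on the X or Y chromosome (Xist, Ddx3y, Uty, Kdm5d and Eif2s3y). In DRG the count was 0 of 7, with a background of 0.0358% of 13963 genes and the same 5 genes. At an unadjusted p under 0.05 there was 1 member in TG (Rian; background 20.7%) and 3 in DRG (Neat1, Meg3 and Rian; background 11.8%). No member met a fold change above 2 with an unadjusted p under 0.05 and a mean above 1 CPM, criteria like those of the study, which used RPKM and left out X- and Y-linked genes, that 7.41% of genes met in TG and 4.97% in DRG.

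Rian, the host of small nucleolar RNAs, had 365, 393 and 378 CPM in the female TG libraries 1 to 3 and 672, 603 and 528 CPM in the male ones. In DRG it had 385, 459 and 469 CPM in females and 663, 776 and 537 CPM in males. Every male library was above every female library of the same ganglion, which 12.6% of genes in TG and 9.63% in DRG also showed. The fitted log2 value, female over male, was -0.62 (SE 0.20, edgeR adjusted p = 0.165) in TG and -0.58 (SE 0.25, edgeR adjusted p = 0.392) in DRG. With DESeq2 the adjusted p of Rian in TG was 0.0256, where 5.83% of genes were called, and over the 17 alternatives it ran from 0.000492 to 0.707. In DRG DESeq2 called 0 of 7 members and 2.49% of genes.

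Neat1 was at 557, 512 and 229.5 CPM in female TG and at 241, 214 and 354 CPM in male TG, where the library numbered 3 was the lowest of the females and the highest of the males. In DRG the females had 609, 511 and 335 CPM and the males 287, 313 and 268 CPM, with no overlap. Among all genes 11.2% in TG and 7.85% in DRG were higher in females without overlap. The log2 fold change was 0.74 (SE 0.34, edgeR adjusted p = 0.246) in TG and 0.75 (SE 0.28, adjusted p = 0.338) in DRG. In TG a call appeared when 1 library was left out: without female TG 3, Neat1 was at 0.99 (edgeR adjusted p = 0.0133) and Rian at -0.66 (edgeR adjusted p = 0.0285), and 23.6% of all genes were called. Over the 17 alternatives the adjusted p of Neat1 in TG ran from 2.50e-05 to 0.872.

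Meg3 had 716, 787 and 541 CPM in female TG and 426, 339.7 and 801 CPM in male TG, so that male TG 3 was the highest of the 12 libraries. In DRG the females had 601, 533 and 664 CPM and the males 424, 342 and 457 CPM without overlap. The log2 fold change was 0.43 (SE 0.32, edgeR adjusted p = 0.453) in TG and 0.56 (SE 0.25, adjusted p = 0.421) in DRG. Mirg, the least abundant member, had 22.4, 16.9 and 18.99 CPM in female TG and 26.9, 29.6 and 28.2 CPM in male TG, without overlap. Its log2 fold change there was -0.49 (SE 0.26, adjusted p = 0.304). In DRG Mirg ranged from 21.4 to 27.8 CPM in females and from 11.3 to 35.4 CPM in males, and the log2 fold change was -0.04 (SE 0.41).

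Miat was at 318, 356 and 143 CPM in female TG and at 189.9, 141 and 272 CPM in male TG. Female DRG had 170.0, 145 and 141 CPM and male DRG 119, 117 and 136 CPM, close to each other but without overlap. The log2 fold change was 0.49 (SE 0.36) in TG and 0.30 (SE 0.26) in DRG, with edgeR adjusted p of 0.445 and 0.706. Malat1 had log2 fold changes of -0.25 (SE 0.24) in TG and 0.20 (SE 0.32) in DRG, and Snhg11 of 0.06 (SE 0.22) and 0.27 (SE 0.26); the sexes overlapped in both genes and both ganglia. In all, 2 of 7 members did not overlap between the sexes in TG (background 23.8%) and 4 of 7 in DRG (background 17.5%).

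**Figure D3:**
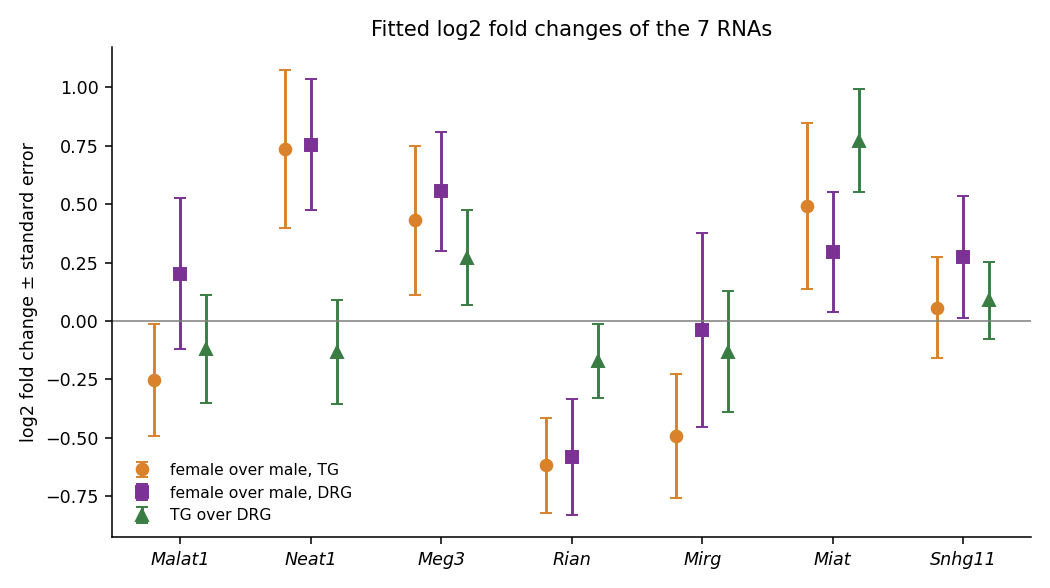
Fitted log2 fold changes (edgeR, ± standard error) of the 7 RNAs for female over male in TG, female over male in DRG, and TG over DRG. Rian lies below 0 in both sex comparisons (-0.62 and -0.58), Neat1 above 0 in both (0.74 and 0.75), and Miat has the TG over DRG value farthest from 0 (0.77).

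Values without the libraries numbered 3 were computed after seeing how they stood apart. With libraries 1 and 2 only, in TG, Neat1 was at 1.24 on the log2 scale (edgeR adjusted p = 2.50e-05), Miat 1.03 (adjusted p = 0.000251), Meg3 0.98 (adjusted p = 0.000147), Rian -0.74 (adjusted p = 0.000492) and Malat1 -0.33 (adjusted p = 0.0139). In DRG, Neat1 was at 0.94 (adjusted p = 0.0108), Rian at -0.73 (adjusted p = 0.0209) and Malat1 at 0.40 (adjusted p = 0.0147), while Meg3 was at 0.60 (adjusted p = 0.0532). Thus 5 of 7 members passed in TG and 3 of 7 in DRG. The background was 44.1% of 14170 genes in TG and 10.1% of 14079 genes in DRG. These fits had 2 libraries in each group, and Malat1 took opposite signs in the ganglia.

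The test of whether the sex effect differed between the ganglia called 0 of 7 members and 0 of 14829 genes in edgeR and in DESeq2; the background is 0%, with 292 genes (1.97%) and no member at an unadjusted p under 0.05 in edgeR. The differences of log2 fold changes (TG minus DRG) ran from -0.51 (SE 0.46) for Malat1 to 0.15 (SE 0.44) for Miat. For Rian the difference was -0.08 (SE 0.32). The standard errors, 0.32 to 0.52 for the 7, limit what these libraries can show of such a difference.

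Although the members of the Dlk1-Dio3 array are transcribed from neighbouring units of the same strand, their counts did not keep a fixed ratio. Meg3 counts divided by Rian counts gave 1.56, 1.16 and 1.42 in female DRG and 0.640, 0.441 and 0.850 in male DRG, without overlap. The ratio combines genes with sex values of opposite sign, and the share of other gene pairs that separate the sexes was not computed. Exons of Meg3 have 50.2% GC and those of Rian 40.0%, and the part of GC content in the ratio was not tested. In TG the ratio was 1.96, 2.001 and 1.43 in females and 0.635, 0.563 and 1.52 in males, where male TG 3 lay among the females. The means were 1.38 ± 0.205 and 0.644 ± 0.204 in female and male DRG, and 1.80 ± 0.319 and 0.905 ± 0.532 in female and male TG (SD, n = 3 each). Across the 12 libraries log2 CPM of Meg3 and Rian had a Pearson correlation of -0.75, as a description of libraries that share groups and depth. Mirg counts were 0.0211 to 0.0724 of those of Rian, and the sexes overlapped in each ganglion.

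**Figure D4:**
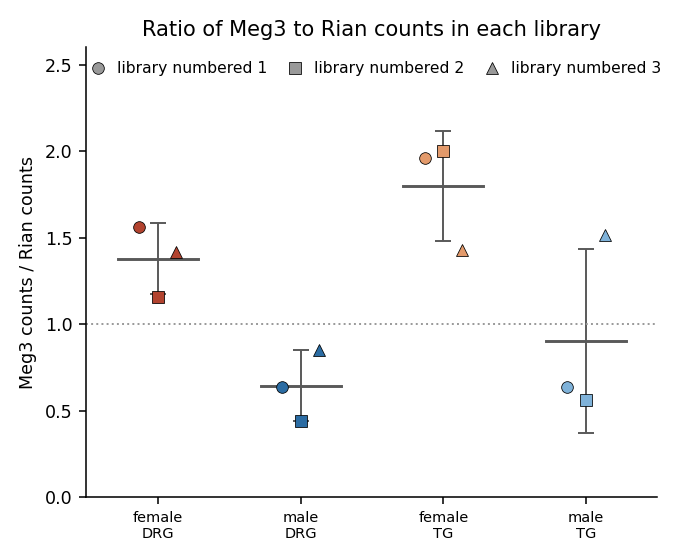
Meg3 counts divided by Rian counts in each of the 12 libraries by group, with the mean ± SD of 3 libraries and a dotted line at 1. The 6 female libraries lie at 1.16 to 2.001, and 5 of 6 male libraries lie below 1, the exception being male TG 3 at 1.52.

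Few other genes of the imprinted region had many counts. From Dlk1 to Dio3 (chr12:110691033-111519307) the files list 57 genes, of which 48 are microRNA rows, and 5 of those had no count in any library. All microRNA rows together had 143 to 728 counts in a library; reads of mature microRNAs are mostly too short for this kind of library. Dlk1, a paternally expressed ligand-like membrane protein, had at most 13 counts in a library and was at 0 in 8 libraries. Rtl1, a paternally expressed retrotransposon-derived gene on the minus strand, had at most 11 counts in a library. A separately listed symbol, 6430411K18Rik, had 211 to 905 counts. It matched the annotated gene of Rtl1 only through a synonym, so that the transcript and strand its reads come from are uncertain. Dio3, which inactivates thyroid hormone, had at most 2. Begain, upstream of Dlk1, averaged 0.458 CPM and Dio3os had counts in 1 library. Of the 5 genes on this list 2 could be tested over 12 libraries, and 0 were called in any comparison.

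The comparison of the ganglia asked which RNAs differ between TG and DRG over both sexes. Miat was the member with the difference farthest from 0: TG libraries had 141 to 356 CPM and DRG libraries 117 to 170.0 CPM. Females had 318, 356 and 143 CPM in TG against 170.0, 145 and 141 in DRG, and males 189.9, 141 and 272 in TG against 119, 117 and 136 in DRG. In males the lowest TG library, at 141 CPM, was just above the highest DRG library, at 136 CPM. The share of all genes whose ganglia do not overlap in males was not computed. Female TG 3 fell within the female DRG range. The fitted log2 value was 0.77 (SE 0.22), or 1.71-fold, with an edgeR adjusted p of 0.134. Thus 0 of 7 members were called, where 0.964% of 14829 genes were. At an unadjusted p under 0.05 there was 1 of 7 (background 8.83%), and 0 of 7 had 6 TG libraries apart from 6 DRG libraries (background 1.36%).

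Whether Miat passed depended on the fit. Without female TG 3 its log2 value was 0.93 (adjusted p = 0.0121, 1.52% of genes called), with libraries 1 and 2 only it was 0.80 (adjusted p = 0.00322, 5.47% called), and with the percent of reads outside genes as a covariate it was 0.71 (adjusted p = 0.0366, 1.24% called). DESeq2 gave an adjusted p of 0.0506 and called 2.25% of genes. Over the 22 alternatives the log2 value ran from 0.57 to 0.93 and its adjusted p from 0.00322 to 0.383. The other members differed less between the ganglia, from -0.17 (SE 0.16) for Rian to 0.27 (SE 0.20) for Meg3, with edgeR adjusted p from 0.847 to 0.985. Of the 14 sensory neuron markers 10 had a negative value, and Trpv1, the heat and capsaicin receptor of nociceptors, was called at -0.76 (SE 0.17, adjusted p = 0.0425). Their part in the Miat values was not tested.

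Among the splicing factors listed as binding Miat, Qk averaged 402 CPM, Sf1 41.7 CPM and Celf3 2.77 CPM. None of the 3 was called in any comparison. Sf1 had group means of 67.0 CPM in female TG, 30.7 in male TG, 39.2 in female DRG and 29.8 in male DRG, with log2 fold changes of 1.18 (edgeR adjusted p = 0.154) for sex in TG and 0.41 (adjusted p = 0.644) for TG over DRG. Celf3 was near the limit of detection in male TG (0.190 CPM), and its TG sex value of 4.37 depends on the prior count.

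Each count file closes with a line of reads that aligned outside annotated genes. With introns and intergenic RNA in it, this line can be read beside RNAs that stay in the nucleus. Reads outside genes, as a percent of reads in and outside genes, were 50.4%, 48.5% and 46.4% in female DRG, 47.7%, 49.1% and 43.5% in female TG, 40.2%, 38.2% and 42.6% in male DRG, and 40.8%, 37.6% and 47.9% in male TG (95% Wilson intervals reach at most 0.0252 points from these values). Females averaged 47.6% ± 2.41 and males 41.2% ± 3.73 (SD, n = 6 each), a difference of 6.40 points (two-sided exact permutation test within ganglion, p = 0.02; the smallest p that 400 arrangements allow is 0.005). With all counted lines as the denominator the difference was 3.99 points (p = 0.05 in the same exact test). TG and DRG differed by 0.0629 points (exact permutation p = 0.96). These tests take the libraries as independent. No label ties a library to an animal, so TG and DRG libraries may come from the same mice. If they do, fewer arrangements of sex are possible, and the p of 0.02 and its limit of 0.005 overstate the evidence.

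Meg3, Miat and Neat1 had positive slopes on the percent of reads outside genes, which did not pass the adjusted threshold. In a fit over all genes with a mean for each group and the percent outside genes as a slope, the log2 change per 10 percentage points was 0.998 (SE 0.25, edgeR adjusted p = 0.143) for Meg3, 1.11 (SE 0.29, adjusted p = 0.154) for Miat and 0.99 (SE 0.33, adjusted p = 0.209) for Neat1. The slopes of Snhg11 (0.34, SE 0.25) and Malat1 (0.25, SE 0.38) were smaller, and those of Mirg (-0.30, SE 0.47) and Rian (-0.33, SE 0.25) were negative. None of the 7 passed the adjusted threshold, where 0.00674% of genes did, that is 1 gene (Col1a1, a collagen of fibroblasts, slope 2.90). Over the 24 alternatives the adjusted p of Meg3 ran from 0.00177 to 0.99994. At an unadjusted p under 0.05 there were 3 of 7 members, all with a positive slope, against 4.42% of genes with a positive and 8.81% with a negative slope (13.2% in all). DESeq2, with 3.39% of genes called, called the same 3 members, at adjusted p of 0.00177 (Meg3), 0.00423 (Miat) and 0.0326 (Neat1).

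Within each ganglion the slopes kept their sign. In TG libraries with sex in the fit, they were 1.20 for Meg3, 1.29 for Miat and 1.11 for Neat1, and in DRG libraries 0.47, 0.74 and 0.82, with edgeR adjusted p of at least 0.333. Without male TG 2 and male DRG 2, the libraries farthest from the median percent, they were 0.88, 1.24 and 1.38. With libraries 1 and 2 only, Meg3 and Miat had 1.20 and 1.16 and Neat1 had 0.40. When trends of each library with GC content and exon length were removed, an alternative added after seeing the data, the slopes fell to 0.50, 0.60 and 0.52. Meg3, Miat and Neat1 have 50.2%, 54.9% and 47.3% GC in their exons and Rian 40.0%, against a median of 49.2% over annotated genes. Their exons come to 18089, 8760 and 20771 bases and those of Rian to 8197, against a median of 2842 bases. When group means were left out, Rian also passed, at -0.67 (adjusted p = 0.0126) in a fit that called 19% of genes.

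**Figure D5:**
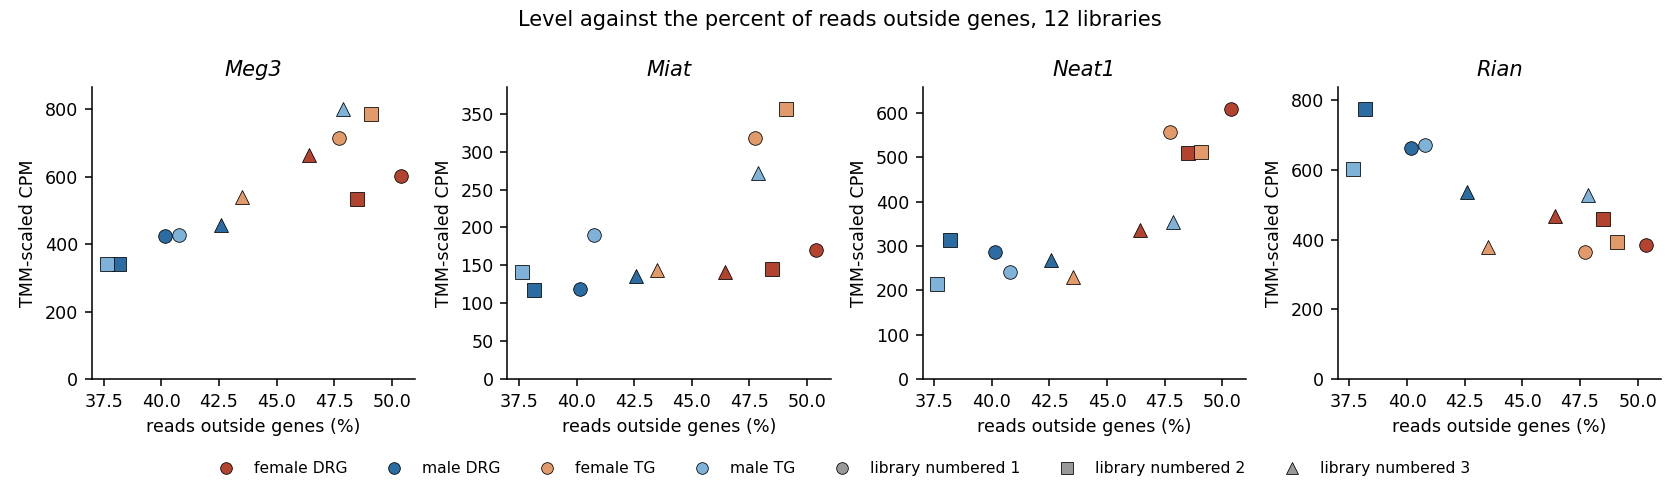
TMM-scaled CPM of Meg3, Miat, Neat1 and Rian (axes from 0) against reads outside genes as a percent of reads in and outside genes, 1 point for each of 12 libraries. Meg3 runs from 339.7 CPM in the library at 37.6% to 801 CPM in male TG 3 at 47.9%, and Rian runs the other way.

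The slopes of the main fit are within groups, so the higher percent of reads outside genes in females does not enter them. The sex values above came from the same libraries, in fits without this percent. In DRG the sexes did not overlap in percent outside genes (46.4% to 50.4% against 38.2% to 42.6%), so that sex and this percent cannot be told apart there. With the percent as a covariate, the log2 fold change of Neat1 was 0.18 in TG and 0.051 in DRG, where it had been 0.74 and 0.75. Meg3 was at -0.051 in TG and 0.19 in DRG, and Miat at -0.15 and -0.31. Rian was at -0.55 in TG and at 0.11 in DRG. Of the 7 members 0 were called in these fits, where 0.0357% of genes in TG and 0.0143% in DRG were, and the lowest edgeR adjusted p of a member was 0.516.

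Genes that work with these RNAs were taken as lists. Of 14 paraspeckle proteins, 0 were called between the sexes; in TG 7 were higher in females and 7 in males, with a median log2 fold change of -0.03 beside 0.05 over all genes, and in DRG the split was also 7 and 7. The most abundant were Tardbp (267 CPM), Hnrnpk (184 CPM) and Cpsf6 (86.5 CPM), with TG sex values of -0.41, -0.65 and 0.08. Of 18 nuclear speckle and SR proteins, 0 were called; Son (413 CPM), Srrm2 (257 CPM) and Srsf1 (235 CPM) had DRG sex values of 0.51, 0.56 and -0.49. Srrm2, the large scaffold of nuclear speckles, had a slope on reads outside genes of 1.21 (edgeR adjusted p = 0.142), and the list had a median slope of -0.05 beside -0.06 over all genes.

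Of 14 other hosts of small nucleolar RNAs, 12 were in the files and 11 were tested. All 11 had a negative slope on reads outside genes, with a median of -0.93 beside -0.06 over all genes, and 0 were called. Their standard errors ran from 0.32 to 2.42, and 1 was at an unadjusted p under 0.05 in edgeR. Among all genes 8.81% had a negative slope at such a p. Gas5 (144 CPM) had a slope of -0.15, 1500012F01Rik (25.6 CPM) of -1.40 and Snhg8 (24.7 CPM) of -0.93, beside 0.34 (SE 0.25) for Snhg11; a difference from Snhg11 was not tested. In TG 10 of 11 were lower in females, with a median log2 fold change of -0.51, and 8 of 11 in DRG. Among other long non-coding RNAs 12 of 21 could be tested and 0 were called. Peg13 (566 CPM), 2900097C17Rik (251 CPM) and Kcnq1ot1 (160 CPM) were the most abundant, with TG sex values of 0.04, 0.04 and 0.03. Of the short structural RNAs Rpph1 had 7132 CPM, Rmrp 1868 CPM and Rnu11 3.61 CPM, and 0 of 5 were called.

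Markers of other cells were taken as lists too, and 0 were called between the sexes. All 8 macrophage markers had a positive sex value in both ganglia (median log2 fold change 1.04 in TG and 0.69 in DRG), and their summed level was 100.2 to 359 CPM in females and 77.4 to 164 CPM in males. Csf1r, the receptor that macrophages need for survival, had values of 1.35 in TG and 1.26 in DRG. The 6 fibroblast markers also had positive sex values (median 0.85 and 0.70), with 1030 to 2191 CPM summed against 618 to 1612 CPM, and all 6 had a positive slope on reads outside genes (median 1.18). For myelinating Schwann cells 5 of 6 markers had positive sex values in each ganglion and 5 of 6 a positive slope (median 0.98), the exception being Pmp22, the most abundant of them (sex values -0.52 and -0.50, slope -0.37), with 2314 to 3490 CPM summed in females against 2236 to 3015 CPM in males.

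The 14 sensory neuron markers were split in the sex comparison, 8 higher and 6 lower in female TG and 7 and 7 in DRG. Calca, the peptide CGRP, had sex values of -0.80 in TG and -0.995 in DRG, and negative slopes were seen for Calca (-1.19), Uchl1 (-1.21) and Tubb3 (-1.02). Of the 7 satellite glia markers 3 had a positive and 4 a negative sex value in TG, and 5 and 2 in DRG (median 0.083), with a median slope of 0.20. Apoe (2739 CPM) had sex values of 0.69 in TG and 0.0100 in DRG, and Fabp7 (701 CPM) of -0.79 and -0.75. Endothelial markers had a positive slope in 6 of 6 (median 0.74; Flt1 1.01), with 300.1 to 603 CPM summed in females and 181 to 416 CPM in males. Mural cell markers had one in 5 of 5 (median 0.74; Pdgfrb 0.74), with 202 to 491 CPM against 187 to 289 CPM. Of the blood cell list only Alas2 had counts. The part of these cells in the values of Meg3, Miat and Neat1 was not tested.

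The genes whose log2 CPM followed each member most closely over the 12 libraries, among genes with a mean of at least 10 CPM, are given as a description. Malat1 was followed by Uso1 (Pearson r = 0.97), Clock (0.97) and Hsp90aa1 (0.96). Neat1 was followed by Wbscr17 (0.97), Sidt2 (0.96) and Map3k3 (0.96), and Miat by Srgap3 (0.96), Dock3 (0.95) and Odz3 (0.93). Meg3 came with Mark3 (0.91), C230081A13Rik (0.91) and Atf7ip (0.90), while Rian came with Hiat1 (0.99), Rpl15 (0.99) and Rab9 (0.98). For Mirg they were Myst4 (0.85), Plscr2 (0.85) and Tbc1d14 (0.85), and for Snhg11 Kcnq1ot1 (0.92), Nktr (0.90) and H2afy (0.90). Among the members themselves Meg3 was most like Snhg11 (0.78) and Miat (0.76).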

How the data were processed

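The authors removed ribosomal RNA by hybridization and RNase H, made dUTP stranded libraries, aligned 50-base single reads to mm9 with TopHat2 at default settings and counted reads per gene with HTSeq. Versions, annotation and strand setting are not given in the sources used here, so that reads of overlapping antisense genes cannot be assigned with certainty. The deposited files hold raw counts per gene symbol, with closing lines for reads outside genes, ambiguous reads and alignments that were not unique. Ambiguous reads were at most 0.226% of reads in genes, outside genes and ambiguous together. These closing lines were left out of library sizes and tests. Reads that align to several places were not counted.

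Symbols were matched to GENCODE vM1 of the same build (21702 of 22609 genes), which gave exon lengths and coordinates. Sex comparisons used 6 libraries of a ganglion, and all other fits all 12 libraries with a mean for each group, with edgeR 4.0.16 in R 4.3.3 (filterByExpr, TMM factors, quasi-likelihood F-test, Benjamini-Hochberg over all genes tested), a choice other than the authors' DESeq. Positive sex values are higher in females. Alternatives were DESeq2 1.42.0, other scalings and filters, a replicate block, the percent outside genes as a covariate, GC and length trends (lowess span 0.3) and leaving out libraries. The scripts were tested on simulated counts in which 200 genes were changed 4-fold. At an adjusted p under 0.05, edgeR recovered 72.5% of them for sex in TG, 23.5% for sex in DRG and 87.5% for TG against DRG. It recovered 0% for the difference in sex effect between ganglia and 2% for the slope on reads outside genes. A lack of calls in those last comparisons therefore says little. The members and lists were chosen with earlier results of these data known. Named genes are all members, the 3 most abundant genes of a list, any called gene of a list, 3 genes most like each member, the 3 genes with the highest share, and Xist and Ddx3y; other names were chosen after their values were seen. A gene that this rule names is not reported here. Neat1 has no promoter window in the table used here.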

Additional observations from a re-analysis of the deposited data

How the results depend on the processing

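Depth limits little here, since Mirg had 144 to 428 counts in a library. The number of genes called between the sexes was 5 in TG, and 817 with DESeq2, 9 with no filter, 6251 with libraries 1 and 2 only, and 5 to 3394 when 1 library was left out (3394 without female TG 3). In DRG it was 5, and 348 with DESeq2, 2 with the percent outside genes as a covariate, 1418 with libraries 1 and 2 only, and 5 to 10 when 1 library was left out (10 without female DRG 3). By a fold above 2 with an unadjusted p under 0.05 and a mean above 1 CPM, 1038 genes in TG became 514 with the covariate, 308 with GC and length trends removed, 265 with these and the replicate block, 3480 with libraries 1 and 2 only, and 584 to 2526 with 1 library left out (584 without female TG 2, 595 without male TG 1, 1596 without male TG 3 and 2526 without female TG 3). In DRG 694 became 27, 397, 385 and 1774, and 377 to 1585 (377 without male DRG 2, 460 without male DRG 1, 1180 without male DRG 3 and 1585 without female DRG 3). Between ganglia 143 genes became 333 with DESeq2, 218 with no filter, 562 with the replicate block, 216 with trends removed, 624 with both, 814 with libraries 1 and 2 only, and 77 to 231 with 1 library left out (77 without male DRG 2, 81 and 94 without female TG 1 or 2, 92, 88 and 92 without male TG 1, 2 or 3, and 231 without female TG 3). For the slope on reads outside genes 1 gene became 503 with DESeq2, 4 with no filter, 1641 with the replicate block, 2824 without group means, 4 with trends removed and 0 with reads outside genes in the library size, in TG only, in DRG only, without the pair of farthest libraries or with libraries 1 and 2 only, and 0 to 1 with 1 library left out (0 without female TG 2 or 3, male DRG 1 or 2, or male TG 1 or 3).

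Of 679 member values under alternatives, 41 changed sign. No member had passed the adjusted threshold in the edgeR fits that these alternatives were set against. The cause of the changes in sign was not tested beyond what each setting changes. With the percent outside genes as a covariate the sex value in TG became -0.051 for Meg3, -0.15 for Miat and -0.12 for Snhg11, and in DRG -0.24 for Malat1, 0.11 for Rian, 1.20 for Mirg, -0.31 for Miat and -0.0045 for Snhg11. With trends removed Miat became -0.20 in TG and -0.10 in DRG (-0.19 and -0.094 with the replicate block too), and Mirg in DRG 0.049 (0.16 with the block). Mirg in DRG was also 0.15 without scaling factors and 0.092 with the replicate block. With libraries 1 and 2 only, Malat1 in TG over DRG became 0.011, and the difference of sex values between ganglia 0.27 for Neat1 and 0.34 for Meg3. The slope of Malat1 became -0.21 without the farthest libraries.

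With 1 library left out, values that changed sign ran from -0.075 to 0.20 for Snhg11 in TG, from -0.090 to 0.69 for Malat1 and -0.39 to 0.22 for Mirg in DRG, and for TG over DRG from -0.25 to 0.10 for Malat1, -0.25 to 0.020 for Neat1 and -0.31 to 0.010 for Mirg. The difference between ganglia ran from -0.29 to 0.24 for Neat1, -0.40 to 0.32 for Meg3, -0.21 to 0.052 for Rian and -0.091 to 0.48 for Miat, and the slope from -0.21 to 0.62 for Malat1 and -0.66 to 0.027 for Mirg. The sex difference in reads outside genes was 3.99 points over all counted lines, with an exact permutation p of 0.05, and the ganglion difference ran from -1.18 to 1.42 points with 1 library left out. The permutation p takes TG and DRG libraries as independent, which no label shows.

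Replicate numbers are shared by the groups, but no label says that they mark an animal or a day, and correlations of deviations between same-numbered libraries ran from -0.0984 to 0.216, so that the numbers were not taken as pairs. With the replicate block Miat in TG over DRG passed, at 0.70 (edgeR adjusted p = 0.00771, in a fit that called 562 of 14829 genes; 0.57 and 0.0137 with trends removed too, where 624 were called). So did the slopes of Meg3 (0.93, adjusted p = 0.0112), Miat (1.20, adjusted p = 0.00678) and Neat1 (1.19, edgeR adjusted p = 0.00401), in a fit that called 1641 of 14829 genes.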
